A study of Homo sapiens with 14 samples.

Results

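The D-type cyclins and the genes that work with them in the G1 phase of the cell cycle were followed across 5 groups of HEK 293 libraries. The 10 genes were chosen by symbol as known members of that machinery: CCND1, CCND2, CCND3, CDK4, CDK6, CDKN1B, CDKN2C, RB1, CCNE1 and CCNE2. Earlier results of these data were known when they were chosen. All 10 are among the 18006 genes of the deposited count table, and 9 of them passed the filter on low counts that left 12080 genes for testing. RB1 did not pass, since it is listed at 0 in every library.

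The study changed the amount of 2 subunits of cleavage factor I (CFIm), CFIm25 (gene NUDT21) and CFIm68 (gene CPSF6), in HEK 293, an established line from human embryonic kidney that carries adenoviral E1 genes. Control cells, labelled wild type, gave 3 libraries. CFIm25 gave 2 libraries under knockdown and 3 under overexpression, and CFIm68 gave 3 under each. Knockdown was by siRNA. The labels used here do not describe the overexpression construct, its promoter or whether its cells were 1 clone, nor any siRNA or vector given to the controls.

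D-type cyclins bind the kinases CDK4 and CDK6, and the active pairs phosphorylate the retinoblastoma protein and its relatives, the pocket proteins, which otherwise hold E2F transcription factors in check. Freed E2F factors switch on genes for DNA replication and the E-type cyclins, which with CDK2 drive entry into S phase. INK4 inhibitors such as the product of CDKN2C block CDK4 and CDK6, while Kip inhibitors such as p27, the product of CDKN1B, bind CDK2 complexes and cyclin D complexes. CFIm binds UGUA (TGTA in DNA letters) in pre-mRNA upstream of cleavage sites and takes part in the choice between proximal and distal polyadenylation sites, so the 3′ end of each gene is shown before its counts.

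In the GENCODE 29 annotation of hg38 the members' 3′ UTRs range from 363 bases in CDKN2C to 10219 bases in CDK6, against a median of 1016 bases over 15759 genes, and 6 of the 10 are longer than that median. CCND2 has 5341 bases, longer than 94.9% of genes, CCND1 has 3192 bases, longer than 84.8%, and CCND3 has 1007 bases, longer than 49.7%. The last 100 bases before each annotated end were searched for TGTA on the transcript strand: 7 of the 10 members hold at least 1, as do 53.6% of genes, and 3 of the 10 (CDK6, RB1 and CCNE1) hold at least 2, as do 20% of genes. CCND2 has 0 TGTA in that window. The polyadenylation hexamer AATAAA was found in the last 50 bases of 6 of the 10 members and in 64% of genes. The stretches below, 5′ to 3′ on the transcript strand, show these letters in the D-type cyclins, which differ most in response, and in CDK6 and CCNE1 as members with a pair of TGTA. Capitals mark the motif for which each stretch is shown. In CCND3 the last base of the TGTA also begins a further AATAAA, left in lower case. A match is a description of letters and not evidence of binding.
CCND1, chr11:69654388-69654417, plus strand: cccagcaccaacaTGTAaccggcatgtttc
CCND1, chr11:69654442-69654471, plus strand: tgaaagtctagaAATAAAactggtaaaacc
CCND2, chr12:4305320-4305349, plus strand: tgctatttggacAATAAActcaccttgacc
CCND3, chr6:41934962-41934991, minus strand: accatcatcctacTGTAataaagatgattg
CCND3, chr6:41934941-41934970, minus strand: agatgattgtgaAATAAAactggctttggc
CDK6, chr7:92604962-92604991, minus strand: ttttttactttaaTGTAaaatgagtataac
CDK6, chr7:92604945-92604974, minus strand: aaatgagtataacTGTAgtgagtaaaattc
CCNE1, chr19:29824217-29824246, plus strand: tatcagttgacagTGTAcaatgcctttgat
CCNE1, chr19:29824243-29824272, plus strand: tgatgaactgtttTGTAagtgctgctatat

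The counts below are per gene, so they do not show which of these ends was used. Total counts per library ran from 15822467 to 33895308. Levels are CPM, read counts adjusted for library size by the TMM method, and changes are log2 fold changes ± standard error (SE) from edgeR's quasi-likelihood test, called at a Benjamini-Hochberg adjusted p under 0.05. NUDT21 had a mean of 514 CPM in control against 53.8 CPM in CFIm25 knockdown and 729 CPM in CFIm25 overexpression. CPSF6 had a mean of 268 CPM in control against 41.6 CPM in CFIm68 knockdown and 730.2 CPM in CFIm68 overexpression, so both targeted genes moved as labelled. NUDT21 was also lower in CFIm68 knockdown, at 232 CPM, and CPSF6 was also higher in CFIm25 knockdown, at 533 CPM. Summed over 5 HEK 293 markers, levels were 304 to 334 CPM in control and 337.5 to 361 CPM in CFIm25 knockdown. They lay below every control in CFIm25 overexpression (259 to 287 CPM), CFIm68 knockdown (259 to 273 CPM) and CFIm68 overexpression (228 to 259 CPM). Most of the sum came from the neurofilament gene NEFL, while NEFM was at 0.409 CPM in control. The sum thus does not stand for the 5 genes as a set. Taken singly, 2 were called higher and 2 lower in CFIm25 overexpression. In CFIm68 knockdown 2 were higher and 1 lower, and in CFIm68 overexpression 1 was higher and 2 lower. The labels do not say whether a group's libraries are separate cultures, so the spread behind each p-value may be technical. The 4 comparisons with control share the same 3 control libraries.

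In CFIm25 knockdown 6 of the 9 tested members were called, where 47.6% of all tested genes were. CCND1, CCND2 and CCNE2 rose, and CCND3, CDK4 and CCNE1 fell. In CFIm68 knockdown 6 of 9 were called, against 56.4% of all genes, with CCND1, CCND2, CDKN1B and CCNE2 up and CCND3 and CCNE1 down. In CFIm25 overexpression 3 of 9 were called, against 56.7% of all genes, and CCND1, CCND3 and CDK4 were those 3, all lower. In CFIm68 overexpression 6 of 9 were called, against 29.8% of all genes, with CCND3, CCNE1 and CCNE2 up and CCND1, CCND2 and CDKN1B down. With so large a share of all genes called, these counts say little about the members as a list. Their median log2 change was -0.025 in CFIm25 knockdown, 0.15 in CFIm68 knockdown, 0.013 in CFIm25 overexpression and -0.067 in CFIm68 overexpression, where the median over all genes lay between -0.0019 and 0.0088. CCND2 was the only member past 2-fold, in both knockdowns, a size reached by 3.97% of genes in CFIm25 knockdown and 5.64% in CFIm68 knockdown.

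**Figure D1:**
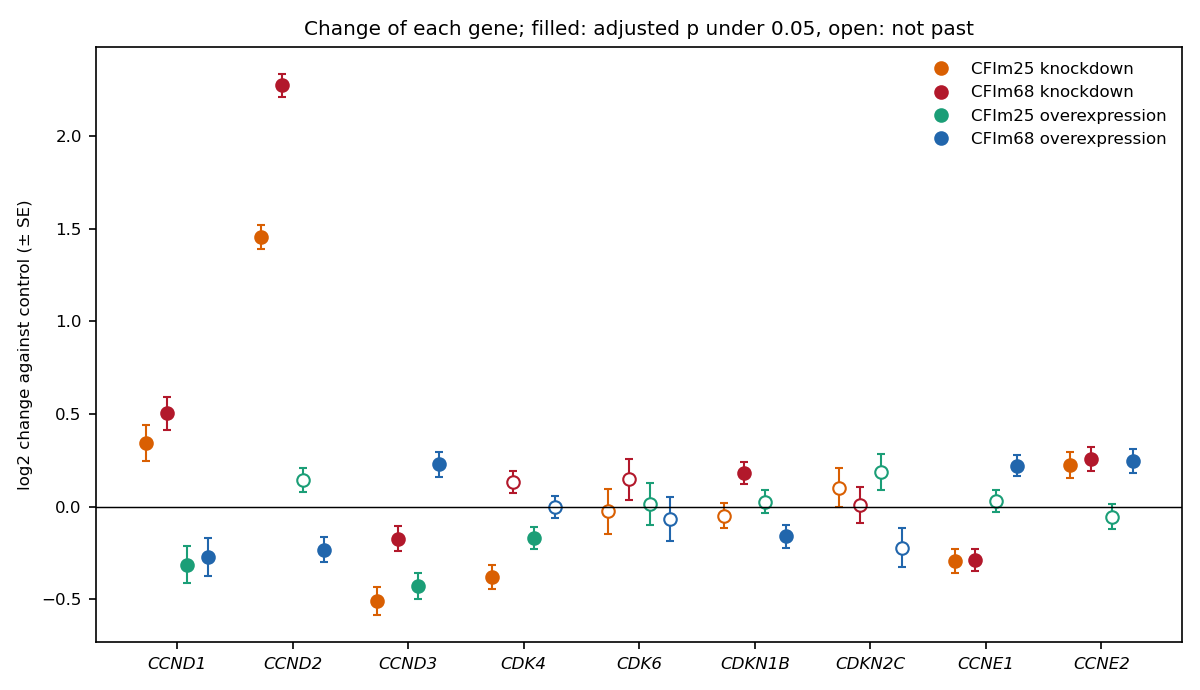
Log2 change against control of the 9 tested members (x axis) in the 4 perturbed groups (colours), with bars for the SE. Filled points passed an adjusted p of 0.05 and open points did not. CCND2 stands at 1.45 and 2.27 in the knockdowns of CFIm25 and CFIm68, and every other point lies between -0.51 and 0.50.

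Per kilobase of merged exons, the control levels ran in the order CDK4 (24.6 CPM per kb), CCNE1 (24.3), CDKN1B (23.3), CCND3 (16.4), CCNE2 (9.44), CCND2 (4.34), CDKN2C (3.49), CCND1 (2.18) and CDK6 (1.69). Per kilobase of coding sequence CCND3 came first, at 92.7 CPM per kb, and CCND1 last, at 11.9, so the order depends on how much untranslated sequence is counted. By both lengths CCND3 was the most abundant D-type cyclin transcript in control cells, CCND2 the second and CCND1 the lowest.

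CCND2 (chr12:4273772-4305350), which encodes cyclin D2, had the largest change of the members. Its level was 32.4, 31.4 and 29.4 CPM in the control libraries. It was 82.1 and 87.8 CPM in CFIm25 knockdown and 144, 157 and 151 CPM in CFIm68 knockdown. The 3 groups did not overlap, and every library of CFIm68 knockdown lay above every library of CFIm25 knockdown. The rise in CFIm25 knockdown was 2.74-fold, a log2 change of 1.45 ± 0.066 (adjusted p = 7.4e-16), and that in CFIm68 knockdown was 2.27 ± 0.061 on the log2 scale (adjusted p = 5e-22). CFIm68 knockdown exceeded CFIm25 knockdown by 1.77-fold, a log2 difference of 0.82 ± 0.062 (adjusted p = 4.7e-11).

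Overexpression moved CCND2 much less. In CFIm68 overexpression it was at 26.1, 26.6 and 26.6 CPM, below every control library, a log2 change of -0.23 ± 0.069 (adjusted p = 0.011). Without control replicate 1 that call was lost (log2 change -0.20, adjusted p = 0.057). In CFIm25 overexpression CCND2 was at 32.9, 33.9 and 36.1 CPM, above every control library, with a log2 change of 0.14 ± 0.066 and a 95% interval of 0.014 to 0.27 that did not pass after adjustment (adjusted p = 0.065). It was called in some other settings, such as when genes needed 1 CPM in 3 or more libraries (adjusted p = 0.043) or without CFIm25 overexpression replicate 1 (adjusted p = 0.03). The overexpression groups differed from each other by -0.37 ± 0.068 on the log2 scale, lower with CFIm68 (adjusted p = 2.1e-05). From CFIm68 overexpression to CFIm68 knockdown the level rose 5.68-fold. CCND2 shares 989 of its 7157 exon bases with AC008012.1 on the same strand, a gene with no row in the table, and the division of reads between them was not tested.

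CCND1 (chr11:69641087-69654474), which encodes cyclin D1, was higher in both knockdowns and lower in both overexpressions. The control libraries had 10.9, 9.94 and 10.8 CPM, from 193, 182 and 194 counts. CFIm25 knockdown had 12.8 and 13.8 CPM, CFIm68 knockdown 14.6, 14.9 and 15.3 CPM, CFIm25 overexpression 7.68, 9.28 and 8.64 CPM and CFIm68 overexpression 8.64, 8.57 and 8.97 CPM. Each perturbed group lay wholly above or wholly below the controls. The rise was 0.34 ± 0.099 on the log2 scale in CFIm25 knockdown (adjusted p = 0.0055) and 0.50 ± 0.089 in CFIm68 knockdown (adjusted p = 2.3e-05). The fall was -0.31 ± 0.099 in CFIm25 overexpression (adjusted p = 0.0086) and -0.27 ± 0.10 in CFIm68 overexpression (adjusted p = 0.042).

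Between knockdown and overexpression of the same subunit CCND1 differed by 0.66 ± 0.10 on the log2 scale for CFIm25 (adjusted p = 3e-06) and by 0.78 ± 0.093 for CFIm68 (adjusted p = 2.7e-08). The knockdowns did not differ from each other beyond their spread (0.16 ± 0.092, 95% interval -0.019 to 0.34, adjusted p = 0.22), nor did the overexpressions (0.041 ± 0.10, 95% interval -0.16 to 0.24, adjusted p = 0.74). The call in CFIm68 overexpression was lost with DESeq2 (adjusted p = 0.082), limma-voom (adjusted p = 0.056), no filter on low counts (adjusted p = 0.063) or only these groups in the fit (adjusted p = 0.061), and it was lost without control replicate 1 or 3, without CFIm68 knockdown replicate 2 or without any 1 of the CFIm68 overexpression libraries (adjusted p = 0.054 to 0.12). The call in CFIm25 knockdown was lost without CFIm25 knockdown replicate 2 (adjusted p = 0.086) and that in CFIm25 overexpression without CFIm25 overexpression replicate 1 (adjusted p = 0.085).

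CCND3 (chr6:41934933-42050357), which encodes cyclin D3, followed another order of groups. Its level was 94.1, 85.2 and 106 CPM in control, 62.0 and 71.1 CPM in CFIm25 knockdown, and 64.1, 74.7 and 73.5 CPM in CFIm25 overexpression. It was 82.9, 84.0 and 85.8 CPM in CFIm68 knockdown and 113, 111 and 110.4 CPM in CFIm68 overexpression. Both CFIm25 groups lay below all controls, CFIm68 overexpression lay above them, and CFIm68 knockdown overlapped the lowest control.

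CCND3 fell by 0.51 ± 0.077 on the log2 scale in CFIm25 knockdown, with control 1.42-fold higher (adjusted p = 4.6e-06), and by 0.43 ± 0.070 in CFIm25 overexpression (adjusted p = 7.4e-06). Both directions of change in CFIm25 thus came with less CCND3, and the CFIm25 groups did not differ from each other beyond their spread (-0.082 ± 0.078, 95% interval -0.23 to 0.070, adjusted p = 0.38). In CFIm68 overexpression it rose by 0.23 ± 0.069 (adjusted p = 0.013), a call lost without control replicate 2 (0.15, adjusted p = 0.11). In CFIm68 knockdown it fell by 0.17 ± 0.068 (adjusted p = 0.031). That last call was lost without control replicate 1 or 3 or CFIm68 knockdown replicate 1 or 2, with adjusted p up to 0.29 and a log2 change of -0.089 without control replicate 3. CFIm68 overexpression exceeded CFIm25 overexpression 1.57-fold (0.65 ± 0.070, adjusted p = 3.5e-09).

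**Figure D2:**
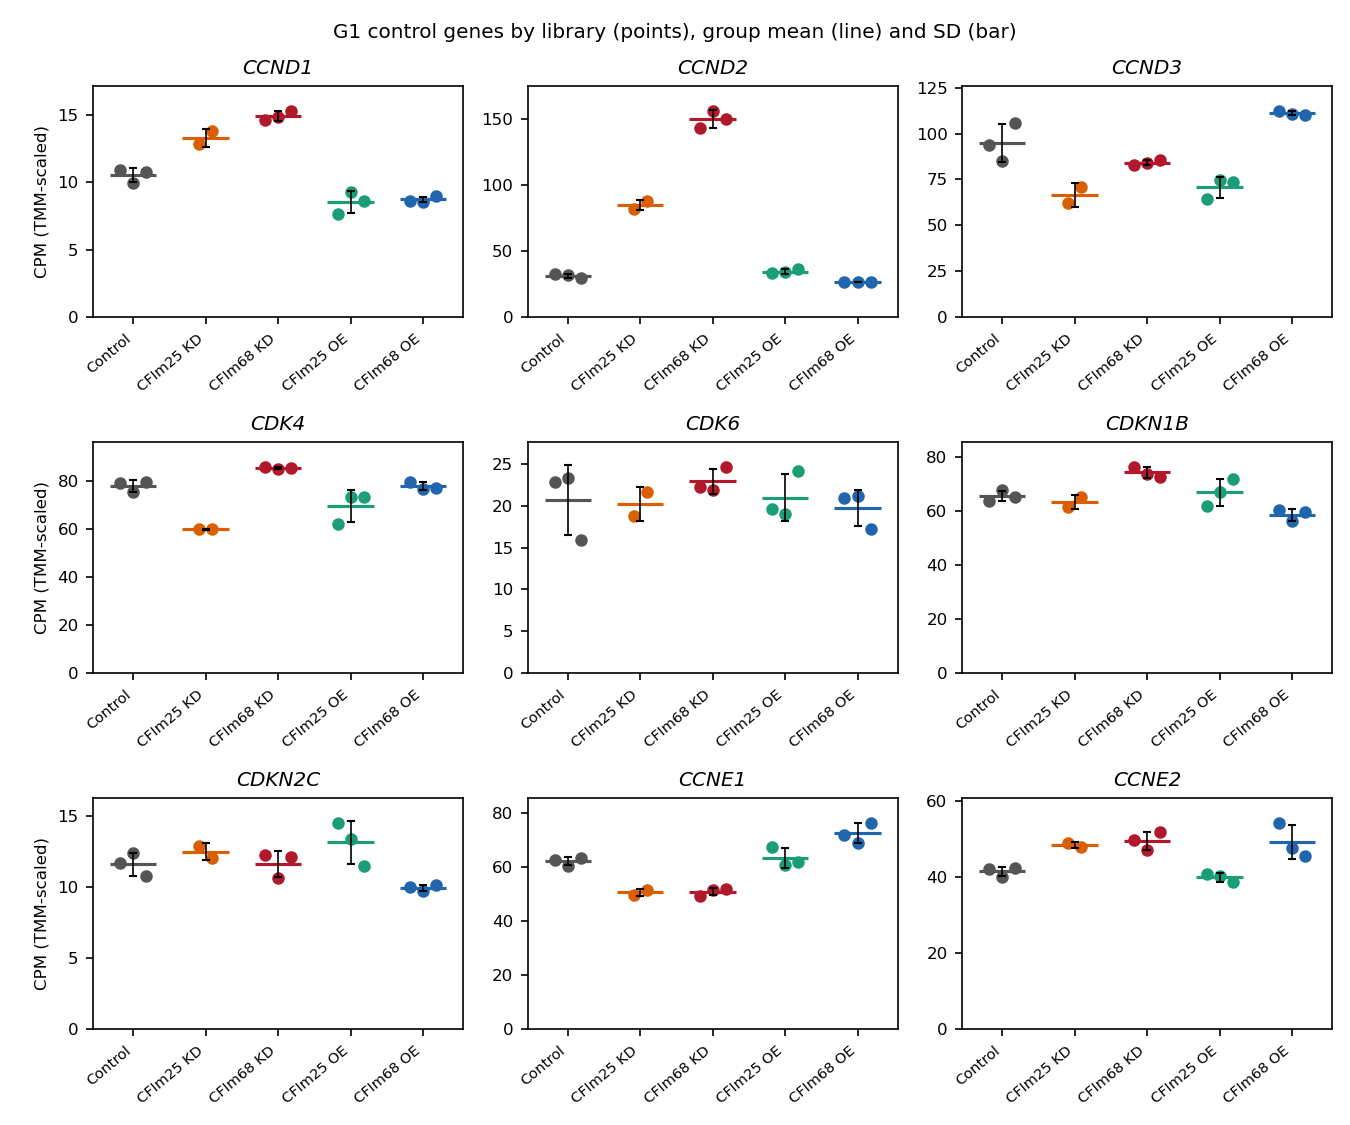
CPM (y axis, from 0, one scale per gene) of the 9 members with counts in each of the 14 libraries (points) by group, with the group mean as a line and the SD as a bar. CCND2 has means of 31.0, 84.98 and 150.3 CPM in control, CFIm25 knockdown and CFIm68 knockdown, and the CDK6 groups overlap around means of 19.8 to 23.0 CPM.

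Set on one scale by merged exon length, the 3 D-type cyclins changed rank, a result that depends on the length used. In control cells CCND3 stood at 16.4 CPM per kb, CCND2 at 4.34 and CCND1 at 2.18, and CCND2 made up 19.0% ± 2.09 (SD, n = 3) of the summed level. In CFIm25 knockdown CCND2 reached 11.9 CPM per kb beside 11.5 for CCND3, a share of 45.5% ± 1.01 (SD, n = 2). In CFIm68 knockdown it stood at 21.0 CPM per kb beside 14.5 for CCND3, a share of 54.4% ± 0.971 (SD, n = 3). CCND2 was above CCND3 in 2 of 2 CFIm25 knockdown libraries and 3 of 3 CFIm68 knockdown libraries, and in 0 libraries of the other groups.

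In the CFIm25 knockdown libraries the margin was small: 11.5 against 10.7 CPM per kb in replicate 1, and 12.27 against 12.25 in replicate 2. The CCND2 share was 25.6% ± 1.22 (SD, n = 3) in CFIm25 overexpression and 14.97% ± 0.262 (SD, n = 3) in CFIm68 overexpression. With coding length in place of exon length the shares were 22.0% in control, 50.1% in CFIm25 knockdown, 58.9% in CFIm68 knockdown, 29.2% in CFIm25 overexpression and 17.4% in CFIm68 overexpression, with the same counts of libraries. Coding length leaves out the 3′ UTR, which is longer in CCND2 than in CCND3. Where reads from it are counted, coding length favours CCND2, so it gives no separate support for the change of rank. The summed level was 22.9 ± 1.73 CPM per kb in control, 26.1 ± 1.82 in CFIm25 knockdown and 38.6 ± 1.08 in CFIm68 knockdown (SD; n = 3, 2 and 3). It was 18.8 ± 1.32 in CFIm25 overexpression and 24.7 ± 0.135 in CFIm68 overexpression (SD, n = 3 each). Merged exons join all annotated transcripts of a gene. In CCND3 they are 5802 bases from 23 transcripts, beside 1025 coding bases and a 3′ UTR of 1007. In CCND2 they are 7157 bases from 4 transcripts, beside 1058 coding bases and a 3′ UTR of 5341. Coding plus 3′ UTR length was not used for the shares. It falls furthest below merged exons in CCND3. By the bases given here it is far shorter in CCND3 than in CCND2. With it CCND3 would stay above CCND2 in every group, so the change of rank and the shares hold only for the lengths used. Reads from a transcript that loses part of its 3′ UTR are spread over fewer bases than the exon length assumes, and that effect on the shares was not tested.

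**Figure D3:**
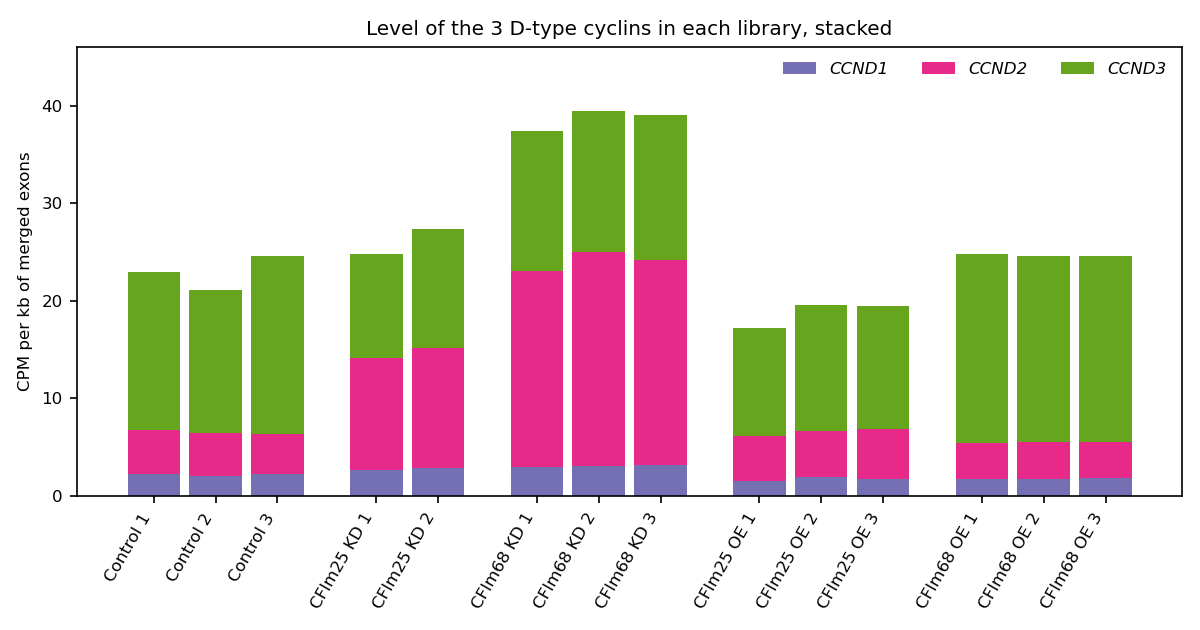
Stacked level of CCND1, CCND2 and CCND3 in each of the 14 libraries (x axis), in CPM per kb of merged exons (y axis, from 0). The CCND2 part has a mean of 4.34 in control, 11.9 in CFIm25 knockdown and 21.0 in CFIm68 knockdown.

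Of the kinases, CDK4 (chr12:57747727-57756013) responded differently to loss of each subunit. Control libraries had 79.0, 75.1 and 79.4 CPM, CFIm25 knockdown 59.8 and 59.7 CPM, and CFIm68 knockdown 85.8, 84.9 and 85.3 CPM. CFIm25 knockdown lay below and CFIm68 knockdown above every control. CDK4 fell by 0.38 ± 0.067 on the log2 scale in CFIm25 knockdown (adjusted p = 3.5e-05). In CFIm68 knockdown the log2 change of 0.13 ± 0.059 did not pass (95% interval 0.018 to 0.25, adjusted p = 0.055), and it did pass in some other settings, such as with the median change of neighbouring genes removed (0.20, adjusted p = 0.0094) or with only these groups in the fit (adjusted p = 0.013). It also passed without CFIm25 overexpression replicate 1 or 3 or CFIm68 overexpression replicate 1 (adjusted p = 0.026 to 0.05). The knockdowns differed from each other by 0.51 ± 0.066 (adjusted p = 1.1e-06), with CFIm68 knockdown 1.43-fold higher.

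In CFIm25 overexpression CDK4 was at 61.9, 73.1 and 73.3 CPM, a fall of -0.17 ± 0.060 on the log2 scale (adjusted p = 0.019). Replicate 1 of that group carried much of the fall: without it the log2 change was -0.078 (adjusted p = 0.26). The call was also lost without control replicate 1 or 3 (adjusted p up to 0.057) and with only these groups in the fit (adjusted p = 0.071). In CFIm68 overexpression CDK4 was at 79.6, 76.3 and 77.0 CPM, within the control range by its mean (log2 change -0.0031 ± 0.060, 95% interval -0.12 to 0.12, adjusted p = 0.98). It differed from CFIm25 overexpression by 0.17 ± 0.061 (adjusted p = 0.019), a difference of 0.066 without CFIm25 overexpression replicate 1 (adjusted p = 0.32). That call was also lost without CFIm68 overexpression replicate 1 (adjusted p = 0.055) and with only these groups in the fit (adjusted p = 0.10). CDK4 shares 1369 of its 3168 exon bases with TSPAN31 on the opposite strand. The library kit was stranded, but no source used here gives the strand setting of the counting.

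CDK6 (chr7:92604921-92836594), the other cyclin D kinase and the member with the longest 3′ UTR, did not pass in any of the 6 comparisons. Its libraries ran from 15.9 to 23.4 CPM in control, where replicate 3 was the low one, from 18.8 to 21.7 CPM in CFIm25 knockdown and from 21.9 to 24.7 CPM in CFIm68 knockdown. They ran from 19.1 to 24.2 CPM in CFIm25 overexpression and from 17.3 to 21.2 CPM in CFIm68 overexpression, so each group overlapped the controls. The 95% intervals of the log2 change were -0.27 to 0.21 in CFIm25 knockdown, -0.068 to 0.36 in CFIm68 knockdown, -0.21 to 0.24 in CFIm25 overexpression and -0.30 to 0.16 in CFIm68 overexpression. Adjusted p-values were 0.88, 0.26, 0.93 and 0.71 in that order.

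Among the inhibitors, CDKN1B (chr12:12715058-12722371) was highest in CFIm68 knockdown and lowest in CFIm68 overexpression. Control libraries had 63.7, 67.6 and 65.0 CPM, CFIm68 knockdown 76.3, 73.7 and 72.5 CPM, and CFIm68 overexpression 60.2, 56.0 and 59.5 CPM. The 3 groups did not overlap. CDKN1B rose by 0.18 ± 0.059 on the log2 scale in CFIm68 knockdown (adjusted p = 0.010) and fell by 0.16 ± 0.061 in CFIm68 overexpression (adjusted p = 0.048). From overexpression to knockdown of CFIm68 the difference was 0.34 ± 0.060 (adjusted p = 1.2e-05).

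In the CFIm25 groups CDKN1B overlapped the controls, with 61.3 and 65.0 CPM in knockdown (log2 change -0.050 ± 0.066, adjusted p = 0.56) and 61.7, 67.1 and 71.6 CPM in overexpression (0.027 ± 0.060, adjusted p = 0.72). CFIm68 knockdown was above CFIm25 knockdown by 0.23 ± 0.065 (adjusted p = 0.0095, and 0.14 without CFIm25 knockdown replicate 1). CFIm68 overexpression was below CFIm25 overexpression by a log2 difference of -0.19 ± 0.061 (adjusted p = 0.0088), which was not called without CFIm25 overexpression replicate 3 (adjusted p = 0.066) or CFIm68 overexpression replicate 2 (adjusted p = 0.057). The call in CFIm68 overexpression was lost with no filter on low counts (adjusted p = 0.052) and without any 1 of the control or CFIm25 knockdown libraries, without CFIm68 knockdown replicate 2 and without CFIm68 overexpression replicate 2 or 3 (adjusted p = 0.052 to 0.20). The call in CFIm68 knockdown was lost without CFIm68 knockdown replicate 1 (adjusted p = 0.062).

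CDKN2C (chr1:50960745-50974633), which encodes the INK4 inhibitor p18, passed in no comparison with control. Control libraries had 11.6, 12.3 and 10.8 CPM, CFIm25 knockdown 12.9 and 12.04 CPM and CFIm68 knockdown 12.2, 10.6 and 12.1 CPM. CFIm25 overexpression had 14.5, 13.3 and 11.5 CPM, and CFIm68 overexpression 10.01, 9.69 and 10.1 CPM, below every control. Its log2 change was 0.10 ± 0.11 in CFIm25 knockdown (adjusted p = 0.45), 0.0065 ± 0.098 in CFIm68 knockdown (adjusted p = 0.96), 0.19 ± 0.099 in CFIm25 overexpression (adjusted p = 0.11) and -0.22 ± 0.11 in CFIm68 overexpression (adjusted p = 0.12). Without CFIm25 overexpression replicate 3 the change in that group was called (0.27, adjusted p = 0.027). The overexpression groups, on either side of control, differed from each other: CFIm68 overexpression was lower by a log2 difference of -0.41 ± 0.10 (adjusted p = 0.0011). CDKN2C had 154 to 402 counts per library and CCND1 had 133 to 461, the fewest of the members beside RB1.

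The retinoblastoma gene RB1 (chr13:48303726-48599436) is listed at 0 counts in all 14 libraries. HSPA8 and KLF6, genes in wide use, are also listed at 0 in all 14, as are 2524 genes of the table in all, so the 0 is not read as a level. In the same pathway SKP1, FBXW7, MCM7 and BRCA1 are listed at 0 throughout.

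The other pocket proteins have counts, and they moved apart. RBL1, which encodes p107, had a mean of 58.7 CPM in control and rose in 3 groups, by 0.52 ± 0.071 on the log2 scale in CFIm25 knockdown (adjusted p = 9.2e-07), 0.55 ± 0.065 in CFIm68 knockdown (adjusted p = 3.6e-08) and 0.64 ± 0.065 in CFIm25 overexpression (adjusted p = 3.5e-09). It fell by 0.34 ± 0.069 in CFIm68 overexpression (adjusted p = 0.00037). RBL2, which encodes p130, averaged 183 CPM in control but 89.7 CPM with CFIm68 knocked down, a log2 change of -1.03 ± 0.056 (adjusted p = 5.7e-15). In CFIm25 knockdown RBL2 had a mean of 135 CPM and fell by 0.44 ± 0.061 (adjusted p = 1.2e-06). It fell by 0.16 ± 0.055 in CFIm25 overexpression (adjusted p = 0.013) and rose by 0.15 ± 0.054 in CFIm68 overexpression (adjusted p = 0.039).

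The E-type cyclins were called in opposite directions in the knockdowns, though the calls of CCNE2 did not hold in every setting. CCNE1 (chr19:29811898-29824308), which encodes cyclin E1, had 62.6, 60.4 and 63.2 CPM in control. It had 49.7 and 51.5 CPM in CFIm25 knockdown and 49.3, 51.3 and 51.8 CPM in CFIm68 knockdown, all below the lowest control. The fall was -0.29 ± 0.066 on the log2 scale in CFIm25 knockdown (adjusted p = 0.00057) and -0.29 ± 0.059 in CFIm68 knockdown (adjusted p = 0.00014). The knockdowns did not differ beyond their spread (0.0040 ± 0.065, 95% interval -0.12 to 0.13, adjusted p = 0.97).

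In CFIm68 overexpression CCNE1 was at 71.9, 68.9 and 76.3 CPM, above every control, a rise of 0.22 ± 0.059 on the log2 scale (adjusted p = 0.0053). In CFIm25 overexpression it was at 67.3, 60.7 and 61.7 CPM and overlapped the controls (0.030 ± 0.059, 95% interval -0.086 to 0.15, adjusted p = 0.69). CFIm68 overexpression exceeded CFIm25 overexpression by 0.19 ± 0.059 (adjusted p = 0.0058). Between overexpression and knockdown of CFIm68 CCNE1 was 1.43-fold higher with overexpression (adjusted p = 1.1e-08).

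CCNE2, which encodes cyclin E2 and lies on chromosome 8, had 42.1, 40.1 and 42.3 CPM in control. It had 49.0 and 47.9 CPM in CFIm25 knockdown, 49.7, 47.1 and 51.8 CPM in CFIm68 knockdown and 54.3, 47.7 and 45.7 CPM in CFIm68 overexpression, and all of these libraries lay above the highest control. On the log2 scale it rose by 0.22 ± 0.072 in CFIm25 knockdown (adjusted p = 0.012), by 0.26 ± 0.065 in CFIm68 knockdown (adjusted p = 0.0014) and by 0.25 ± 0.067 in CFIm68 overexpression (adjusted p = 0.0062). CFIm25 overexpression, at 40.9, 40.2 and 38.6 CPM, overlapped the controls (-0.056 ± 0.067, adjusted p = 0.50) and lay below CFIm68 overexpression, which exceeded it by 0.30 ± 0.067 (adjusted p = 0.00028).

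The call of CCNE2 in CFIm68 overexpression was lost without CFIm68 overexpression replicate 1 (0.17, adjusted p = 0.059), and that in CFIm25 knockdown without CFIm25 knockdown replicate 1 (0.21, adjusted p = 0.073). Both knockdown calls were lost with the median change of neighbouring genes removed (adjusted p = 0.47 for CFIm25 and 0.11 for CFIm68). CCNE2 shares 1633 of its 4397 exon bases with genes on the opposite strand, INTS8 among them.

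In the order of group means, neighbouring groups that differed were not the same from gene to gene. Groups said not to differ are those whose test did not pass an adjusted p of 0.05, which does not show equal levels. For CCND1 the order was CFIm68 knockdown, CFIm25 knockdown, control, CFIm68 overexpression and CFIm25 overexpression, and the outer pairs did not differ (adjusted p = 0.22 and 0.74). For CCND2 the order was CFIm68 knockdown, CFIm25 knockdown, CFIm25 overexpression, control and CFIm68 overexpression. Only the step from CFIm25 overexpression to control did not pass (adjusted p = 0.065), and it was called in some other settings. For CCND3 the order was CFIm68 overexpression, control, CFIm68 knockdown, CFIm25 overexpression and CFIm25 knockdown, and the last pair did not differ. For CDK4, CFIm68 knockdown, control and CFIm68 overexpression came first, with no difference between neighbours (adjusted p = 0.055 and 0.98), and CFIm25 overexpression and CFIm25 knockdown followed, each lower than the group before (adjusted p = 0.019 and 0.0085). For CDKN1B only the step from CFIm68 knockdown to CFIm25 overexpression passed (adjusted p = 0.023), and for CDK6 and CDKN2C no neighbours differed. For CCNE1 CFIm68 overexpression came first, then CFIm25 overexpression and control, which did not differ, then CFIm68 and CFIm25 knockdown, which did not differ. For CCNE2 both knockdowns and CFIm68 overexpression formed an upper set without differences, above control and CFIm25 overexpression, which did not differ from each other (adjusted p = 0.50).

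Compared directly, the knockdowns differed in 4 of 9 members, against 24.2% of all genes, and CCND2, CCND3, CDK4 and CDKN1B were each higher in CFIm68 knockdown. Without CFIm25 knockdown replicate 1 the count was 2 members, and the count over all genes dropped from 2929 to 1465. The overexpressions differed in 7 of 9 members, against 63.7% of all genes. CCND3, CDK4, CCNE1 and CCNE2 were higher with CFIm68 overexpression, and CCND2, CDKN1B and CDKN2C were lower. In CFIm68 overexpression against control the count of called members went from 6 to 3 without control replicate 1.

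Of 40 other genes of the G1 pathway 38 were tested. In CFIm25 knockdown 17 rose, 6 fell and 15 did not pass, with a median log2 change of 0.15 against 0.0047 over all genes, of which 24.4% rose and 23.2% fell. TFDP2, a dimerisation partner of E2F factors, rose by 0.83 ± 0.16, the transcription factor gene MYC by 0.72 ± 0.11 and RBL1 as given above. CDK3 fell by 1.53 ± 0.14, CDKN1A, which encodes the inhibitor p21, by 0.62 ± 0.11 and CDKN2A, which encodes the INK4 inhibitor p16 and ARF, by 0.45 ± 0.14. CDK3 shares 1644 of its 1803 exon bases with the read-through gene TEN1-CDK3, so its value is uncertain.

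CFIm68 knockdown raised 16 of the 38 and lowered 8, and 14 did not pass; the median was 0.15 against 0.00079 over all genes, of which 28.3% rose and 28.1% fell. TFDP2 rose by 0.84 ± 0.14 and FBXO4, which encodes an F-box protein, by 0.64 ± 0.11. RBL2 was the largest fall after CDK3 (-1.15 ± 0.12), and E2F4, whose product pairs with pocket proteins in repression, fell by 0.47 ± 0.064. CDKN1A, which fell in CFIm25 knockdown, was at 34.1 CPM here against 33.1 CPM in control (0.046 ± 0.095, adjusted p = 0.70), and the knockdowns differed in CDKN1A by 0.67 ± 0.11 (adjusted p = 3e-05).

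In CFIm25 overexpression 16 of the 38 rose, 8 fell and 14 did not pass, with a median of 0.029 against -0.0019 over all genes, of which 27.7% rose and 29.1% fell. MYC rose by 1.05 ± 0.11, from a mean of 6.08 CPM to 12.6 CPM, and E2F2, which encodes an activating E2F factor, by 0.84 ± 0.050, from 96.9 CPM to 173.7 CPM. CDKN1A fell by 1.24 ± 0.11, from 33.1 CPM to 14.2 CPM, CDKN2A by 0.51 ± 0.13 and CCNC, which encodes cyclin C, by 0.40 ± 0.13. In CFIm68 overexpression 4 of the 38 rose, 8 fell and 26 did not pass, with a median of -0.011 against 0.0088 over all genes, of which 14.5% rose and 15.4% fell. The low-count gene CDKN1C, which encodes the Kip inhibitor p57, rose by 0.83 ± 0.31, from 0.740 CPM to 1.34 CPM. CDKN1A rose by 0.37 ± 0.096 and E2F4 by 0.19 ± 0.064, while MYC fell by 0.43 ± 0.13, CUL1, a ubiquitin ligase scaffold, by 0.40 ± 0.052 and E2F5 by 0.38 ± 0.086. CDKN1A differed between the overexpressions by 1.61 ± 0.11 on the log2 scale, higher with CFIm68 (adjusted p = 2e-13).

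Of 24 E2F target genes, most of them replication genes, 22 were tested. In CFIm25 knockdown 5 rose, 4 fell and 13 did not pass (median log2 change -0.00051), where 47.6% of all genes were called. RRM2, a subunit of ribonucleotide reductase, rose by 0.51 ± 0.059 and the replication licensing factor gene CDC6 by 0.31 ± 0.053, while CDT1, its partner in licensing, fell by 0.49 ± 0.10. With CFIm68 knockdown the counts were 8 up, 6 down and 8 not past (median 0.050), where 56.4% of all genes were called, with RRM2 up by 0.71 ± 0.054, MCM5 up by 0.36 ± 0.049 and CDT1 down by a log2 change of -0.40 ± 0.091. RRM2 shares 1077 of its 5323 exon bases with AC007240.1 on the same strand.

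In CFIm25 overexpression 10 of the 22 rose, 4 fell and 8 did not pass (median 0.028), where 56.7% of all genes were called. MYBL2, a transcription factor gene, rose by 0.44 ± 0.049 and EZH2, a histone methyltransferase gene, by 0.42 ± 0.050. The helicase subunit genes MCM5 and MCM6 had log2 changes of -0.47 ± 0.050 and -0.30 ± 0.048. In CFIm68 overexpression 3 rose, 8 fell and 11 did not pass (median -0.058), where 29.8% of all genes were called. The thymidine kinase gene TK1 fell by 0.63 ± 0.057, from 227 CPM to 146 CPM, and RRM2 and MYBL2 each fell by 0.37, while POLA1, CDC45 and PCNA rose by at most 0.17. The list thus had members on both sides in each of the 4 comparisons.

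**Figure D4:**
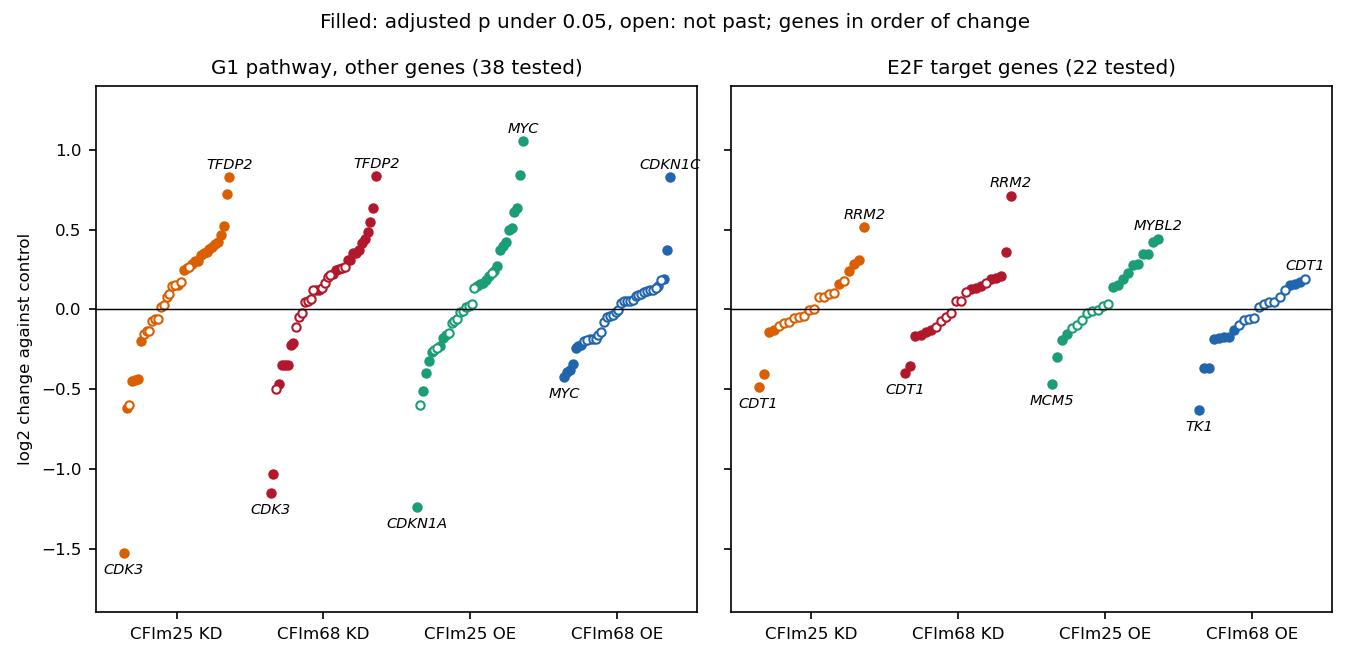
Log2 change against control (y axis) of 38 other G1 pathway genes and 22 E2F target genes in the 4 perturbed groups (x axis), each group's genes in order of change. Filled points passed an adjusted p of 0.05 and open points did not. The lowest G1 point is CDK3 at -1.53 in CFIm25 knockdown and the highest is MYC at 1.05 in CFIm25 overexpression.

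Markers of other cell types moved with some groups. Summed over 5 keratinocyte or HeLa-type markers, levels were 4.77 to 5.28 CPM in control, 6.05 to 7.72 CPM in CFIm25 knockdown, 10.98 to 13.9 CPM in CFIm25 overexpression, 10.6 to 14.9 CPM in CFIm68 knockdown and 3.76 to 3.95 CPM in CFIm68 overexpression. KRT17 gave most of it in each group and S100A2 most of the remainder, with KRT5, KRT6A and KRT14 at no more than 3 counts in any library. S100A2 did not follow KRT17: its mean was 0.907 CPM in control and 0.798 CPM in CFIm25 overexpression. It was 0.829 CPM in CFIm68 knockdown and 1.20 CPM in CFIm68 overexpression. Summed over 5 mesenchymal markers, levels were 50.5 to 54.8 CPM in control, 52.8 to 57.5 CPM in CFIm25 knockdown, 46.4 to 53.7 CPM in CFIm25 overexpression, 65.5 to 68.2 CPM in CFIm68 knockdown and 24.95 to 28.4 CPM in CFIm68 overexpression. COL1A1 gave most of that sum, and COL1A2 and DCN are listed at 0. LUM went from a mean of 2.61 CPM in control to 0.109 CPM in CFIm25 overexpression, where the sum overlapped the controls. The part of these markers in the changes of the G1 genes was not tested. In bulk RNA fewer cells of a kind, or cells in another phase of the cycle, and less RNA per cell cannot be told apart.

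The genes whose levels were most like each D-type cyclin over the 14 libraries, among the 9361 genes that averaged at least 5 CPM, are given as a description. The libraries share 5 group means, so such coefficients are high for many genes. For CCND2 they were GRK3 (Pearson r = 0.994), LZIC (r = 0.991) and NRP1 (r = 0.988). By Spearman's rho other genes came first for CCND2, namely MPRIP (0.996), TTC26 (0.991) and VAPB (0.991). GRK3 had means of 37.4 CPM in control, 85.7 CPM in CFIm25 knockdown and 128.8 CPM in CFIm68 knockdown. For CCND1 they were GEMIN4 (r = 0.988), TRAPPC1 (r = 0.984) and NDUFB2 (r = 0.984), and for CCND3 they were SHC1 (r = 0.966), PHAF1 (r = 0.963) and DGCR2 (r = 0.955). These lists also changed with Spearman's rho, to GNA11, SMARCD2 and TRAPPC1 for CCND1 and to DGCR2, GUCD1 and CASTOR2 for CCND3. DGCR2 had means of 228 CPM in control, 176 CPM in CFIm25 knockdown and in CFIm25 overexpression, 212 CPM in CFIm68 knockdown and 247 CPM in CFIm68 overexpression.

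Genes near each member on its chromosome were set beside it, since whole stretches can shift together. They were taken by order along the chromosome, and the windows span megabases. The window was chr12:190077-6870948 for CCND2 and chr19:19900913-34773229 for CCNE1. The median log2 change of the 50 nearest tested genes was -0.0097 for CCND2 in CFIm25 knockdown and 0.085 in CFIm68 knockdown, against 1.45 and 2.27 for CCND2 itself. Around CCND1 the knockdown medians were -0.12 (CFIm25) and -0.16 (CFIm68), where CCND1 rose, and -0.20 in CFIm25 overexpression, where CCND1 fell by 0.31. With that median removed, the fall of CCND1 in CFIm25 overexpression was -0.12 (adjusted p = 0.31) and was no longer called. Around CCNE1 the median was 0.34 in CFIm25 overexpression, with 35 of the 50 neighbours above 0. CCNE1 itself stood at 0.030 there, and with the median removed at -0.27 (adjusted p = 0.00064).

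Around CCNE2 the neighbours' median was 0.16 with CFIm25 knocked down and 0.14 with CFIm68 knocked down. With it removed, CCNE2 changed by 0.063 (adjusted p = 0.47) and 0.12 (adjusted p = 0.11), so both calls were lost. The falls of CCND3 in CFIm68 knockdown (-0.11, adjusted p = 0.14) and of CDK4 in CFIm25 overexpression (-0.081, adjusted p = 0.31) were lost in the same way, as were the differences of CDK4 (0.050, adjusted p = 0.53) and CDKN1B (-0.13, adjusted p = 0.095) between the overexpressions. CDKN1B in CFIm68 overexpression kept its size (-0.16) but not its call (adjusted p = 0.074). CCND2 in CFIm25 overexpression was called with its neighbours' median removed (0.24, adjusted p = 0.0022). Whether copy number or regulation moves these stretches was not tested.

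**Figure D5:**
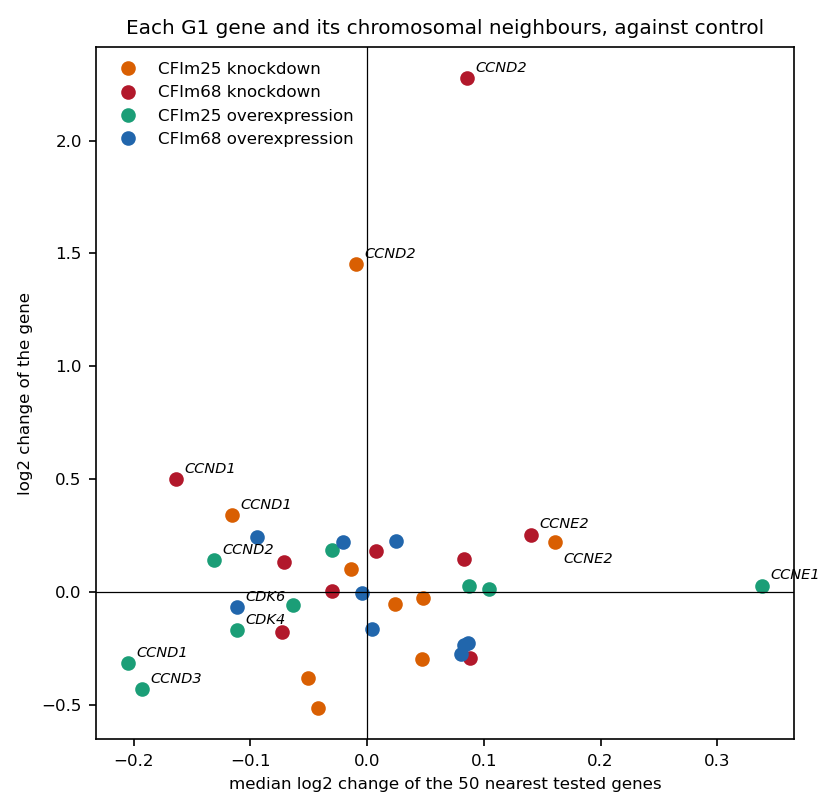
Log2 change against control of each of the 9 members (y axis) against the median log2 change of its 50 nearest tested genes (x axis), coloured by perturbed group. CCND2 stands apart at 1.45 and 2.27 with neighbour medians of -0.0097 and 0.085, and CCNE1 in CFIm25 overexpression lies furthest to the right, at 0.34.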

How the data were processed

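RNA was measured in 14 HEK 293 libraries made with the TruSeq Stranded mRNA kit, per the labels' protocols. The authors deposited raw read counts per gene. The submitters' processing notes name cutadapt 1.16, STAR 2.7.1a and the build hg38. How reads were counted, with which annotation and strand setting, is not given here. Of 18006 identifiers 17983 matched a symbol in GENCODE 29.

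The filter was filterByExpr (minimum count 10, minimum total 15); libraries were scaled by TMM (factors 0.973 to 1.05) and tested with edgeR 4.0.16 in R 4.3.3, by a quasi-likelihood fit to all 14 libraries with 1 coefficient per group. Adjusted p-values are Benjamini-Hochberg over the 12080 tested genes of each comparison, and 10 pairs of groups were tested. Intervals are the estimate ± 1.96 SE. In simulated counts of 12080 genes, 1.5-fold changes were recovered in 87% (CFIm25 knockdown), 81% (CFIm68 knockdown), 82% (CFIm25 overexpression) and 86% (CFIm68 overexpression) of cases. In each simulation 100 genes were changed by that fold, far fewer than were called in the data, and 6 to 12 unchanged genes were called. Most member changes were smaller than 1.5-fold, and the simulation gives no recovery for those. No 2 libraries of a group agreed within sampling noise (chi-square per degree of freedom 1.86 to 9.86).

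The members, the lists and the comparisons were chosen with earlier results of these data known. Named are all 10 members, NUDT21 and CPSF6, the 3 called genes of each pathway list with the largest rise and fall against control (some of these are not reported here), the 3 genes most like each D-type cyclin, and RBL1 and RBL2 as pocket proteins and CDKN1A in each comparison; the last 3 were followed across groups after their values were seen. Blood cell markers summed to at most 0.348 CPM. Other settings tried were DESeq2 1.42.0, limma-voom (limma 3.58.1), median-ratio size factors, a filter of 1 CPM in 3 libraries, no filter, a block for the replicate number, only the compared groups, removal of neighbour medians and leaving out each library. Sequences and lengths are from GENCODE 29 transcripts. Polyadenylation site use was not analysed here. Figures used Python 3.11.15, pandas 2.3.3 and matplotlib 3.10.9.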

Additional observations from a re-analysis of the deposited data

Results flagged for a closer look

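CCND3 was called in opposite directions against the same controls in the overexpression groups, lower with CFIm25 and higher with CFIm68. The difference between them was itself tested, and CFIm68 overexpression exceeded CFIm25 overexpression by 0.65 on the log2 scale (edgeR quasi-likelihood test, Benjamini-Hochberg adjusted p = 3.5e-09), with 3 of 3 libraries above 3 of 3. Around CCND3 the median change of the 50 nearest tested genes between these groups was 0.25, in the same direction. Groups of 2 or 3 libraries are too small for a test of single outlying libraries.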

How the results depend on the processing

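Of 32 called member changes in the 6 comparisons, 16 kept their direction and call in all 8 other settings and all 14 fits without 1 library, among them every change of CCND2 in the knockdowns. Leaving out 1 library in turn gave 3 to 6 called members in CFIm68 overexpression against control, and 2 to 4 members and 1465 to 3344 genes between the knockdowns. Of 1188 member values, 1094 kept direction and side of the threshold, 49 lost the call, 11 gained it and 34 changed sign, all but CCNE1 in CFIm25 overexpression without a call on either side.

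Sign changes without a library lay within these log2 ranges: CDK6 -0.18 to 0.071 (CFIm25 knockdown), -0.012 to 0.24 (CFIm68 knockdown), -0.15 to 0.11 (CFIm25 overexpression), -0.23 to 0.030 (CFIm68 overexpression) and -0.15 to 0.027 (between overexpressions). For CDKN2C the range was -0.044 to 0.068 in CFIm68 knockdown, for CDKN1B -0.022 to 0.094 and for CCNE1 -0.0093 to 0.061 in CFIm25 overexpression, and for CDK4 -0.027 to 0.011 in CFIm68 overexpression. Between knockdowns CCNE1 ran from -0.020 to 0.030, and between overexpressions CCND1 from -0.057 to 0.095. With neighbour medians removed, the sign changed in CFIm25 overexpression for CDK6 (-0.064), CDKN1B (-0.036), CCNE1 (-0.27) and CCNE2 (0.016), in CFIm68 overexpression for CDK6 (0.049), and between overexpressions for CCND1 (-0.235) and CDK6 (0.11). CCNE1 between knockdowns was -0.0023 without a filter and -0.00038 with only those groups; the cause was not tested.

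Deviations from group means correlated at r = -0.063 to 0.17 in 26 pairs of libraries with the same replicate number (median 0.020, 3 over 0.1) and at most 0.084 in 52 pairs with different numbers (0 over 0.1). Not every same-number pair was over 0.1, so the numbers are not taken as pairs. Whether some same-number libraries share a batch was not tested, and these values cannot decide it. With the replicate number as a block, CDK4 in CFIm68 knockdown (0.13, adjusted p = 0.037) and CCND2 in CFIm25 overexpression (0.14, adjusted p = 0.048) were called, CCNE1 between knockdowns was -0.0098, and no called member was lost. CCND1 and CDKN2C had the fewest counts of the tested members, and per-gene counts cannot show 3′ UTR use.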
